A study of Homo sapiens with 6 samples.

Results

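The human mitochondrial genome is a small circle with its own genes, and every one of its 37 annotated transcripts was followed here: 13 mRNAs, 2 ribosomal RNAs and 22 transfer RNAs. They were chosen as the rows of a table of 58051 genes whose symbol starts with MT-. That rule used no measured value, but it was set with earlier results of these data known. The samples were cells of MDA-MB-231, an established line from human breast cancer, labelled as wild type. All cells had been stained with FITC-tagged recombinant human FABP4, a carrier of fatty acids, and flow cytometry had parted those that bound it from those that did not. Each group had 3 libraries, made from rRNA-depleted, randomly primed total RNA, and the labels do not say whether these came from separate cultures or sorts. The spread behind each p-value is therefore that of these libraries alone and may be technical.

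Both strands of the circle are transcribed around the circle into long precursors, from which enzymes cut the tRNAs and so free the mRNAs and rRNAs between them. By convention the 12 mRNAs, both rRNAs and 14 tRNAs annotated on the plus strand are called heavy-strand genes, while MT-ND6 and 8 tRNAs on the minus strand are called light-strand genes. The mRNAs encode core membrane subunits of the respiratory chain: 7 of complex I (NADH dehydrogenase), 1 of complex III (cytochrome b), 3 of complex IV (cytochrome c oxidase) and 2 of complex V (ATP synthase). All other subunits, and the proteins that transcribe and process mitochondrial RNA, come from nuclear genes. The series title ties FABP4 binding to mitochondrial reactive oxygen species, and the respiratory chain is a known source of these.

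The tRNA sequences that the results turn on are shown first, as GENCODE release 29 transcripts on the hg38 mitochondrial chromosome, 5′ to 3′ with T for U and the anticodon in capitals. The anticodon was located as the triplet reading a codon of the named amino acid, after a T and inside a 7-base loop closed by a stem of 5 positions. MT-TW, MT-TA, MT-TN, MT-TC and MT-TY lie side by side between MT-ND2 and MT-CO1. MT-TW is on the plus strand (chrM:5512-5579), the other 4 on the minus strand (chrM:5587-5655, chrM:5657-5729, chrM:5761-5826 and chrM:5826-5891). MT-TP, also on the minus strand (chrM:15956-16023), is the last gene before the control region. MT-TL1 on the plus strand (chrM:3230-3304) sits between MT-RNR2 and MT-ND1.
MT-TW: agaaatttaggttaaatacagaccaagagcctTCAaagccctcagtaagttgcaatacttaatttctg
MT-TA: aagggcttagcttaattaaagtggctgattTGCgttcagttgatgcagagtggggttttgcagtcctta
MT-TN: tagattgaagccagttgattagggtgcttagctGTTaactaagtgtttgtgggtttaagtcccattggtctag
MT-TC: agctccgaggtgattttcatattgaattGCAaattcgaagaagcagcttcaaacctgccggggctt
MT-TY: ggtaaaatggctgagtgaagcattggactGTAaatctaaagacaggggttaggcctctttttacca
MT-TP: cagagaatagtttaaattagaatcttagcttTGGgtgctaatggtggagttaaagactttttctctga
MT-TL1: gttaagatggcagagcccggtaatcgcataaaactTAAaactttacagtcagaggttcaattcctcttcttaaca
The first 5 are neighbours of 66 to 73 bases, yet MT-TN, MT-TC and MT-TY had 1413, 557 and 650 reads over the 6 libraries, against 11 for MT-TW and 14 for MT-TA.

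Values were TPM, length-scaled transcript shares that sum to 1000000 in each library. They divide by gene length and by the library's sum over all genes. With the annotated lengths, each member's TPM came out as a whole multiple of one step per library, to within 0.000216 of a whole number, so the step was taken as the value of 1 counted read or read pair. Over all genes under 50 such reads, between 94.1% and 94.4% of values were whole to within 0.02. By this step the binding libraries held an estimated 6752832, 5379432 and 5625816 counted reads and the non-binding libraries 4062554, 3649077 and 3691119. Of these, 176363, 149190 and 172980 reads fell on the mitochondrial genome in the binding libraries and 35122, 30760 and 28123 in the non-binding libraries. The binding libraries were deeper, and the part of depth in results that rest on few reads was not tested.

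Of the markers of MDA-MB-231 cells, VIM ranged from 821 to 981 TPM over the 6 libraries. All 6 markers passed the filter on low values. Of these, 3 were higher in binding by limma, where 19.6% of all tested genes were, and none was lower. The receptor genes ESR1 and PGR were at 0 and at most 0.0573 TPM. The 3 other luminal genes, ERBB2, GATA3 and FOXA1, passed the filter and were called in neither direction. Of 12 epidermal markers, all were above 0 in each library and their sum was 1619, 2846 and 2331 TPM in the binding libraries and 4615, 5121 and 3650 TPM in the non-binding libraries. By limma 8 of the 12 were lower in binding, where 7.12% of all tested genes were, and none was higher. Adipocyte markers summed to at most 1.46 TPM, endothelial markers to at most 3.75 TPM, leukocyte markers to between 20.7 and 36.9 TPM and fibroblast markers to between 23.3 and 60.7 TPM. The part of the epidermal signal in the mitochondrial results was not tested. In bulk RNA, fewer cells of a type and less RNA per cell cannot be told apart, and neither can more mitochondrial genomes per cell and more RNA per genome.

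Transcripts of the mitochondrial genome were higher in cells that bound FABP4, in each RNA class and each complex. The 13 mRNAs took 7.80%, 8.39% and 9.39% of all TPM in the binding libraries and 2.72%, 2.41% and 2.37% in the non-binding libraries, a 3.41-fold difference of means. The 2 rRNAs took 1.24%, 1.07% and 1.18% against 0.326%, 0.349% and 0.277%, or 3.67-fold. The 22 tRNAs took 0.950%, 0.729% and 0.666% against 0.331%, 0.320% and 0.328%, or 2.40-fold. For all 3 classes the groups did not overlap (p = 0.1 in a two-sided exact permutation test, the lowest value possible with 3 libraries a group). By complex, the mean share of TPM was 3.14% in binding and 0.912% in non-binding libraries for complex I, 0.279% and 0.106% for complex III, 3.06% and 0.842% for complex IV, and 2.05% and 0.640% for complex V. Counted as reads, in which long nuclear genes weigh more, the whole genome took 2.61%, 2.77% and 3.07% of reads against 0.865%, 0.843% and 0.762%.

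All 15 mRNAs and rRNAs reached the filter of 1 TPM in all 6 libraries and were tested with limma on log2(TPM + 1) beside all other genes, with p-values adjusted over all genes by Benjamini and Hochberg's method. Every one was higher in binding, where 19.6% of the 15574 genes tested were called higher and 26.7% were called in either direction, and in every one the groups did not overlap, which held, with binding higher, for 38.6% of all genes tested. Their log2 changes ran from 1.26 to 2.01, against a median of 0.36 over all tested genes. When each library was shifted to a common median, which brought the median of all genes to 0.04, the 15 ran from 0.94 to 1.69 and all still passed, where 6.18% of genes were called higher. All 15 also passed on the recovered reads (limma-voom, largest adjusted p = 0.00101), where 27.5% of 13313 genes were called higher, and without any single library (limma, largest adjusted p = 0.0498, for MT-RNR1 without non-binding replicate 3).

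**Figure D1:**
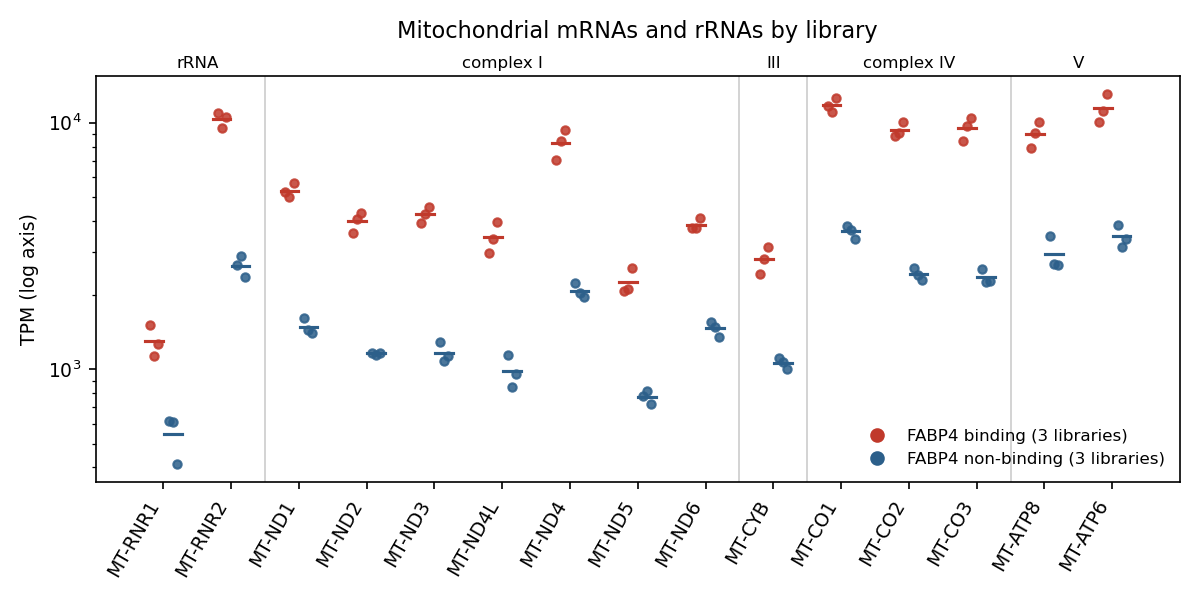
TPM on a log axis (vertical) for the 2 mitochondrial rRNAs and 13 mRNAs (horizontal, grouped by complex). Points are libraries and short lines group means; in each of the 15 genes the 3 binding libraries lie above the 3 non-binding libraries, and MT-CO1, at 11660.2, 11037 and 12582 TPM in binding, has the highest mean.

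Among the complex IV genes, which encode the catalytic core that passes electrons to oxygen, MT-CO1 was the most abundant, at 11660.2, 11037 and 12582 TPM in the binding libraries and 3814, 3683 and 3371 TPM in the non-binding libraries. The groups were far apart (log2 change 1.70, SE 0.12, limma adjusted p = 0.00103). MT-CO2, the subunit that takes electrons from cytochrome c, stood at 8825, 9089 and 10054 TPM in the binding libraries and 2577, 2421 and 2296 TPM in the non-binding libraries, 3.83 times higher on average. MT-CO3, a structural subunit of the core, stood at 8466, 9730.0 and 10451 TPM in the binding libraries and 2544, 2269 and 2284 TPM in the non-binding libraries, 4.04 times higher, the highest ratio of means among the 15 genes. MT-CO1 differed less, at 3.25 times.

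The 7 complex I genes encode the membrane arm that pumps protons. MT-ND4, an antiporter-like subunit, had the highest level, at 7049, 8409.6 and 9348 TPM in the binding libraries and 2245, 2046 and 1966 TPM in the non-binding libraries (log2 change 1.98, SE 0.14, limma adjusted p = 0.00103). MT-ND1, next to the quinone site, stood at 5232, 4984 and 5678 TPM in the binding libraries and 1620.0, 1442 and 1404 TPM in the non-binding libraries. MT-ND2, another antiporter-like subunit, stood at 3568, 4068 and 4303 TPM in the binding libraries and 1167, 1147 and 1162 TPM in the non-binding libraries. The 3 genes were 3.96, 3.56 and 3.43 times higher in binding, in this order.

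MT-ND3, a short subunit near the junction of the membrane and matrix arms, stood at 3911, 4265 and 4571 TPM in the binding libraries and 1291, 1079 and 1135 TPM in the non-binding libraries. MT-ND4L, whose reading frame shares 7 bases with the start of MT-ND4, stood at 2974, 3376 and 3974 TPM in the binding libraries and 1141, 844 and 960.1 TPM in the non-binding libraries. MT-ND5, the antiporter-like subunit at the far end of the arm, had the lowest level of the 13 mRNAs, at 2084, 2112 and 2571 TPM in the binding libraries and 778, 814 and 726 TPM in the non-binding libraries. MT-ND3 and MT-ND4L were 3.64 and 3.51 times higher in binding and MT-ND5 2.92 times.

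MT-ND6 is the mRNA of the light strand and encodes a further complex I subunit (ENSG00000198695, chrM:14149-14673, single exon, minus strand). It stood at 3734, 3729 and 4123 TPM in the binding libraries and 1559, 1486 and 1349 TPM in the non-binding libraries, 2.64 times higher in binding (log2 change 1.40, SE 0.12, limma adjusted p = 0.00224). Every binding library lay above every non-binding library. Whether reads were counted by strand is not given in the sources used here, so heavy-strand RNA across the same bases cannot be told apart from MT-ND6.

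MT-CYB, cytochrome b of complex III, is the last mRNA along the heavy strand. It stood at 2435, 2804 and 3134 TPM in the binding libraries and 1108, 1066 and 999 TPM in the non-binding libraries, 2.64 times higher (log2 change 1.39, SE 0.13, limma adjusted p = 0.00319). This was the lowest ratio of means among heavy-strand mRNAs. Of the complex V genes, which encode the proton channel side of ATP synthase, MT-ATP6 stood at 10109, 11175 and 13046 TPM in the binding libraries and 3855, 3137 and 3391 TPM in the non-binding libraries (log2 change 1.72, SE 0.15, limma adjusted p = 0.00224). MT-ATP8 shares 46 bases with MT-ATP6, so reads there are uncertain between both. It stood at 7918, 9101 and 10025 TPM in the binding libraries and 3482, 2663 and 2657 TPM in the non-binding libraries.

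The rRNAs form the core of the mitochondrial ribosome. MT-RNR2, the large-subunit rRNA, stood at 10941, 9549 and 10545 TPM in the binding libraries and 2647, 2877 and 2360.1 TPM in the non-binding libraries (log2 change 1.98, SE 0.13, limma adjusted p = 0.000860). MT-RNR1, the small-subunit rRNA, was several times lower at 1506, 1128 and 1264 TPM in the binding libraries and 617, 613 and 415 TPM in the non-binding libraries and differed less (log2 change 1.26, SE 0.19, limma adjusted p = 0.0123). Libraries had been depleted of rRNA, and whether the probes covered mitochondrial rRNA is not given in the sources used here, so these 2 levels are what remained after depletion.

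**Figure D2:**
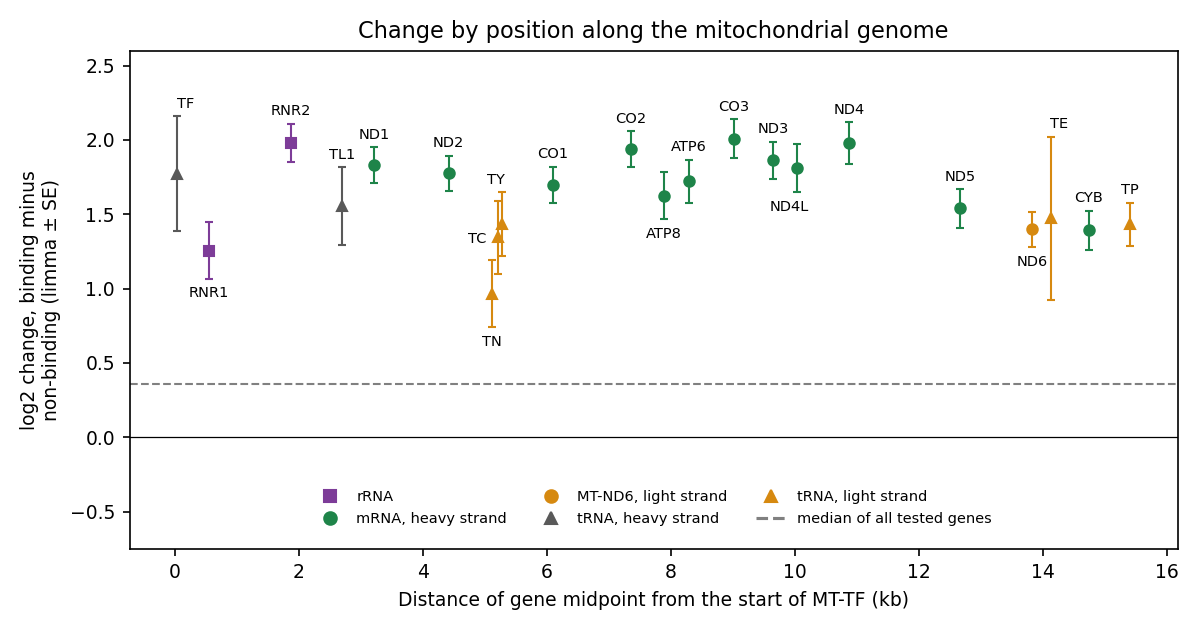
Log2 change between groups by limma on log2(TPM + 1) (vertical, points, with SE bars) against distance of the gene's midpoint from the start of MT-TF in kb (horizontal), for the 15 mRNAs and rRNAs and the 7 tRNAs with at least 5 reads in at least 3 libraries. All 22 points lie above the dashed median of all genes at 0.36, and MT-ND5, MT-ND6 and MT-CYB lie below the mRNAs that precede them, with MT-RNR1 lowest of the long RNAs at 1.26.

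Over the 15 mRNAs and rRNAs the ratio of means ran from 2.37 for MT-RNR1 to 4.04 for MT-CO3. Ratios inside a library do not depend on how the library is scaled, so they were compared between groups with exact permutation tests, in which 3 against 3 cannot go below 0.1 and none could pass. In all 30 such ratios were computed, each of mean TPM per gene, and the smallest Benjamini-Hochberg adjusted value over them was 0.250. The ratio of MT-ND6 to the mean of the 12 heavy-strand mRNAs was 0.604, 0.558 and 0.551 in the binding libraries and 0.730, 0.789 and 0.724 in the non-binding libraries. The groups did not overlap, and the difference in mean log2 ratio, binding minus non-binding, was -0.39 (two-sided exact permutation p = 0.1). It was between -0.43 and -0.35 when any single library was left out.

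MT-ND5 and MT-CYB, the last 2 mRNAs along the plus strand, also had lower ratios. MT-CYB over the other 11 heavy-strand mRNAs was 0.373, 0.399 and 0.398 in the binding libraries and 0.497, 0.544 and 0.515 in the non-binding libraries, a log2 difference of -0.41. MT-ND5 over the other 11 was 0.318, 0.298 and 0.325 in the binding libraries and 0.344, 0.411 and 0.369 in the non-binding libraries, a log2 difference of -0.26. The groups did not overlap in either (two-sided exact permutation p = 0.1 for each).

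In the opposite direction, MT-CO3 over the other 11 was 1.42, 1.52 and 1.45 in the binding libraries and 1.21, 1.23 and 1.25 in the non-binding libraries, a log2 difference of 0.25. MT-ND4, which lies just before MT-ND5 but for 3 tRNAs, had a log2 difference of 0.21 and MT-CO2 one of 0.17. MT-ND3 (0.08) and MT-ATP8 (-0.19) also had groups that did not overlap (two-sided exact permutation p = 0.1 for each of these 5). For MT-ND1, MT-ND2, MT-ND4L, MT-CO1 and MT-ATP6 the groups overlapped, with log2 differences from -0.11 for MT-CO1 to 0.05 for MT-ND1. These single-gene ratios were chosen after the values were seen.

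By complex, ratios set the mean TPM per gene of a complex over that of all 13 mRNAs. The log2 ratio of the 7 complex I genes differed by 0.0107. Its linear values were 0.680, 0.685 and 0.684 in binding against 0.670, 0.683 and 0.682 in non-binding (two-sided exact permutation p = 0.4). For complex IV the ratio was 1.61, 1.54 and 1.53 against 1.42, 1.51 and 1.45, and for complex III, which is MT-CYB alone, 0.406, 0.435 and 0.434 against 0.530, 0.575 and 0.548, with no overlap in either (two-sided exact permutation p = 0.1 for each). Complex V overlapped between groups (p = 0.3 by the same exact test).

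The 2 rRNAs together overlapped between groups in their ratio to the mRNAs, at 1.04, 0.827 and 0.818 in the binding libraries and 0.781, 0.941 and 0.761 in the non-binding libraries (two-sided exact permutation p = 0.5). The balance between the 2 rRNAs, which was not among the planned ratios, did not overlap between groups. The ratio of MT-RNR2 to MT-RNR1 was 7.27, 8.47 and 8.34 in the binding libraries and 4.29, 4.69 and 5.69 in the non-binding libraries (log2 difference 0.72; two-sided exact permutation p = 0.1). Processing frees both from one precursor, with MT-TV between them. Depletion acts on rRNA, and its part in this ratio was not tested.

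**Figure D3:**
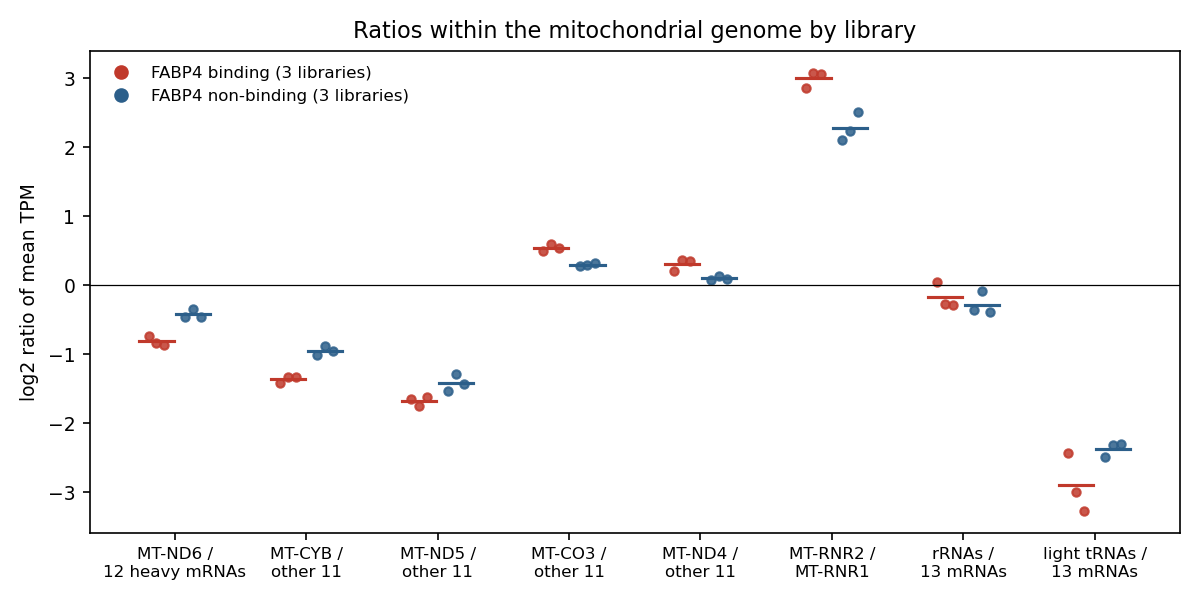
Log2 ratio of mean TPM within each library (vertical) for 8 pairs of mitochondrial gene sets (horizontal); points are libraries and short lines group means. MT-ND6, MT-CYB and MT-ND5 are lower and MT-CO3, MT-ND4 and the MT-RNR2 to MT-RNR1 ratio higher in all 3 binding libraries, while rRNAs and light-strand tRNAs against the 13 mRNAs overlap between groups.

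Transfer RNAs carry amino acids to the mitochondrial ribosome. Their reads were few in these libraries: all 22 together had 3791 recovered reads over the 6 libraries, against 477624 on the 13 mRNAs and 111123 on the rRNAs. Reads are not scaled by length, and these genes are only 59 to 75 bases long. Minus-strand tRNAs held 91.0% of the tRNA reads, and MT-TN, MT-TC, MT-TY and MT-TP alone 88.7%. Since strand-aware counting is not given, plus-strand RNA across these genes may be among their reads, and the split is by annotated strand only. One read of a tRNA 69 bases long was worth 7.19 to 8.63 TPM in binding and 11.6 to 12.8 TPM in non-binding libraries, so the filter of 1 TPM passed any tRNA with a read in 3 libraries. By that filter 19 of 22 were tested, and 14 of 22 had 20 or fewer reads in all 6 libraries together. Of those tested, 9 passed higher and none lower, against 19.6% of all genes higher. They were 4 of 11 tested on the plus strand and 5 of 8 on the minus strand, and 2 of them, MT-TV and MT-TW, reached the filter only through reads in the binding libraries. Only 7 of the 22 had enough reads for the test on reads (at least 5 in at least 3 libraries). Of these 7, 5 passed it as higher, where 27.5% of 13313 genes were called higher.

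MT-TN, the asparagine tRNA, had 548, 284 and 244 reads in the binding libraries and 114, 115 and 108 in the non-binding libraries. In TPM it stood at 3725, 2318 and 1922 TPM in the binding libraries and 1248, 1361 and 1306 TPM in the non-binding libraries (log2 change 0.97, SE 0.23, limma adjusted p = 0.0242). It passed on reads too, but its call on TPM was lost without any one of the non-binding libraries, with the common median, without a filter and without the intensity trend. In the ratio to the 13 mRNAs, binding replicate 1 (0.621) lay within the non-binding range of 0.597 to 0.734 and binding replicates 2 and 3 (0.359 and 0.266) lay below it.

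MT-TC, for cysteine, had 217, 118 and 110 reads in the binding libraries and 47, 39 and 26 in the non-binding libraries (log2 change 1.35, SE 0.25, limma adjusted p = 0.0155). MT-TY, for tyrosine, had 260, 118 and 151 reads in the binding libraries and 39, 44 and 38 in the non-binding libraries (log2 change 1.43, SE 0.22, limma adjusted p = 0.0123). MT-TC and MT-TY share 1 base. In all 3 of these neighbours binding replicate 1 was the highest library, with 1025 reads over the 3 genes against 520 and 505 in the other binding libraries. Both calls were lost without non-binding replicate 3, and that of MT-TC also without non-binding replicate 2.

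MT-TW and MT-TA, shown above beside MT-TN, had few reads. MT-TW, for tryptophan, had 4, 1 and 6 reads in the binding libraries and 0, 0 and 0 in the non-binding libraries. MT-TA, for alanine, had 0, 7 and 6 reads in the binding libraries and 1, 0 and 0 in the non-binding libraries (limma log2 change 2.65, adjusted p = 0.232). Without binding replicate 1, its binding library with no read, the change was 4.59 and passed (limma adjusted p = 0.0334). MT-TW passed by limma, but it was tested only because of its reads in the 3 binding libraries, so it had to differ, and the same holds for MT-TV with 3, 2 and 1 reads in the binding libraries and 0, 0 and 0 in the non-binding libraries. Neither had enough reads for the test on reads, and 0 reads over the non-binding libraries allow up to 3.69 by an exact Poisson 95% interval, which covers counting error only.

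MT-TP, for proline, had 203, 203 and 190 reads in the binding libraries and 50, 41 and 54 in the non-binding libraries, and its binding libraries were close to each other (log2 change 1.43, SE 0.15, limma adjusted p = 0.00478). It passed without any single library and by voom on reads (limma-voom adjusted p = 0.00176). Relative to the mean of the 13 mRNAs it was 0.247, 0.276 and 0.223 in the binding libraries and 0.281, 0.281 and 0.385 in the non-binding libraries, with no overlap (two-sided exact permutation p = 0.1). Ratios of single tRNAs were not among those planned. For MT-TN, MT-TC, MT-TY and MT-TL1 the groups overlapped (two-sided exact permutation p = 0.2, 0.2, 0.4 and 0.6). MT-TL1, one of the leucine tRNAs, was the only plus-strand tRNA with over 100 reads, at 58, 62 and 52 reads in the binding libraries and 18, 8 and 14 in the non-binding libraries (log2 change 1.56, SE 0.26, limma adjusted p = 0.0136), a call lost without non-binding replicate 3.

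MT-TF, for phenylalanine, had 15, 8 and 8 reads in the binding libraries and 1, 3 and 2 in the non-binding libraries and passed on TPM (log2 change 1.77, SE 0.39, limma adjusted p = 0.0211) but not on reads (limma-voom, adjusted p = 0.0665), nor on TPM without non-binding replicate 3. MT-TE, for glutamate, lies next to MT-ND6 on the same strand and had 13, 14 and 11 reads in the binding libraries and 4, 1 and 6 in the non-binding libraries. It did not pass on TPM or on reads (limma adjusted p = 0.0751 and, by voom, 0.108). MT-TS1, a serine tRNA, had 4, 6 and 5 reads in the binding libraries and 2, 0 and 0 in the non-binding libraries and passed on TPM (limma adjusted p = 0.0391). That call was lost without any library other than non-binding replicate 1, and with the common median, quantile normalization, no filter, no trend and a pseudocount of 0.1.

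The other tRNAs were not called and had at most 9 reads in any library. MT-TL2 had 3, 9 and 3 reads in the binding libraries and 4, 1 and 4 in the non-binding libraries, and MT-TH had 2, 2 and 4 reads in the binding libraries and 0, 2 and 2 in the non-binding libraries. These are the second leucine tRNA and that for histidine. The threonine tRNA MT-TT had 1, 2 and 2 reads in the binding libraries and 2, 0 and 1 in the non-binding libraries, and the second serine tRNA MT-TS2 had 0, 3 and 0 reads in the binding libraries and 0, 2 and 3 in the non-binding libraries. MT-TQ, for glutamine, had 0, 4 and 0 reads in the binding libraries and 2, 0 and 1 in the non-binding libraries, and MT-TI, for isoleucine, which shares 3 bases with it on the other strand, had 0, 1 and 2 reads in the binding libraries and 2, 0 and 0 in the non-binding libraries. MT-TG, for glycine, had 0, 4 and 0 reads in the binding libraries and 1, 1 and 0 in the non-binding libraries, and MT-TM, for methionine, had 1, 0 and 1 reads in the binding libraries and 2, 1 and 0 in the non-binding libraries. In all 8 the groups overlapped and none passed. MT-TK and MT-TD, for lysine and aspartate, with 6 and 3 reads in all, each in 2 binding libraries, missed the filter. MT-TR, for arginine, which separates MT-ND3 from MT-ND4L, had no read in any library. The number of tRNAs with a read was 14, 20 and 18 in the binding libraries and 15, 12 and 12 in the shallower non-binding libraries.

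Taken by strand, the mean TPM per tRNA gene over the mean TPM of the 13 mRNAs overlapped between groups. For light-strand tRNAs the ratio was 0.186, 0.126 and 0.104 in the binding libraries and 0.178, 0.201 and 0.202 in the non-binding libraries and for heavy-strand tRNAs 0.00702, 0.00882 and 0.00665 in the binding libraries and 0.0113, 0.00850 and 0.0127 in the non-binding libraries (two-sided exact permutation p = 0.2 for each). A fragment longer than a tRNA reaches into its neighbours. How such reads were assigned is not given in the sources used here, so tRNA values may hold precursor RNA as well as mature tRNA.

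**Figure D4:**
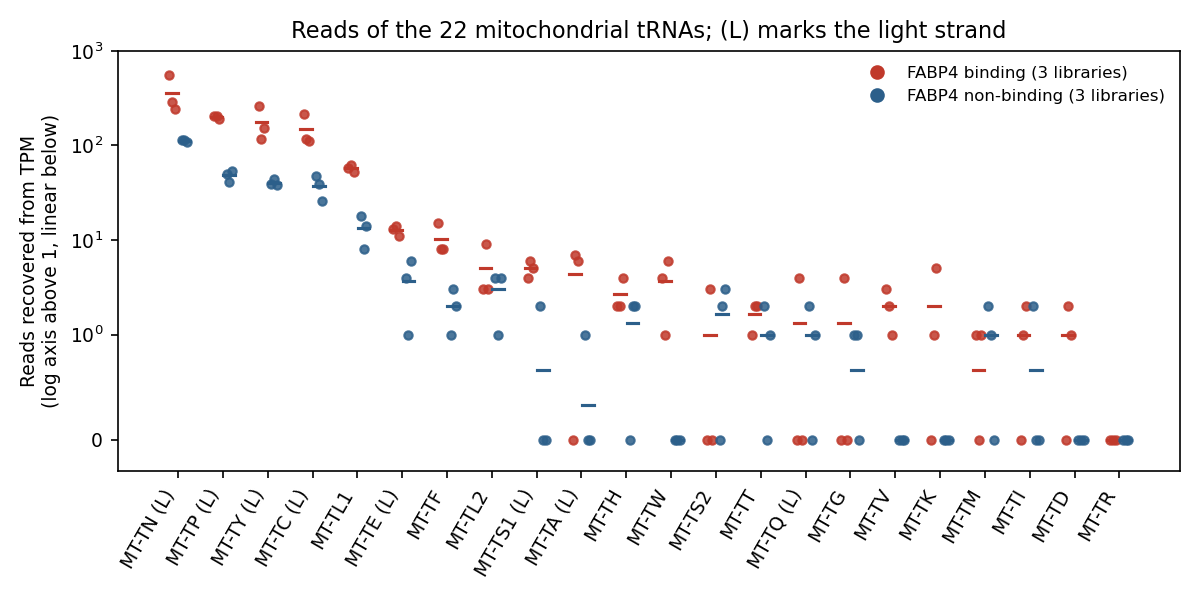
Reads recovered from TPM (vertical, log axis above 1 and linear below) for the 22 tRNAs (horizontal, by total reads, L for light strand); points are libraries and short lines group means. The 4 most read tRNAs are all on the light strand, MT-TN leading with 548, 284 and 244 reads in binding, and 14 of the 22 have 20 or fewer reads in all libraries together.

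The mitochondrial subunits were set beside the nuclear subunits of the same complexes, all of which were tested. In complex I, 20 of 37 nuclear genes passed higher and 1 lower, where 19.6% of all tested genes were called higher and 7.12% lower. Complex III had 8 of 9 higher, complex IV 9 of 12 and complex V 12 of 18, with 2 lower in complex V and none in the other 2. For complex II, which has no mitochondrial gene, none of 4 passed. Median log2 changes of the nuclear subunits were 0.70, 0.73, 0.75 and 0.75 for complexes I, III, IV and V and 0.53 for complex II, against 1.81, 1.39, 1.94 and 1.67 for the mitochondrial subunits of complexes I, III, IV and V and 0.36 for all tested genes. None of the 80 nuclear subunits passed without non-binding replicate 2 or without non-binding replicate 3. In those 2 settings only 429 of 15128 and 186 of 15081 genes tested were called in either direction. With the common median 17 of the 80 were higher, where 6.18% of all genes were.

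The nuclear genes with the smallest p in each complex had log2 changes of about 1 or less, given here in parentheses. In complex I these were the accessory subunits NDUFS5 (535 ± 114 against 287 ± 2.85 TPM, SD, n = 3 each; log2 change 0.88), NDUFA8 (0.89) and NDUFA13 (0.77). In complex III they were CYC1, the cytochrome c1 subunit (0.89), UQCRQ (0.80) and UQCRH (0.73), and in complex IV COX6C (44.2 ± 9.75 against 20.3 ± 2.14 TPM, SD, n = 3 each; log2 change 1.07), COX7A2 (0.89) and COX6A1 (0.87). In complex V they were ATP5MPL (1.07), the inhibitor ATP5IF1 (0.87) and ATP5F1E (0.83). The complex II genes SDHC and SDHD, its membrane anchors, and SDHA, its flavoprotein, had log2 changes of 0.62, 0.61 and 0.46 and did not pass.

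The genes that were lower included the catalytic beta subunit of ATP synthase. ATP5F1B stood at 2669, 2948 and 2862 TPM in the binding libraries and 3752, 4172 and 3726 TPM in the non-binding libraries (log2 change -0.46, SE 0.12, limma adjusted p = 0.0290). ATP5MC3, one of 3 genes for the same rotor ring protein, stood at 299 ± 45.0 against 415 ± 11.3 TPM (SD, n = 3 each, limma adjusted p = 0.0397), and NDUFS1, a complex I iron-sulfur subunit, at 61.7 ± 2.59 against 85.6 ± 4.05 TPM (SD, n = 3 each, limma adjusted p = 0.0317). Leaving out any library but binding replicate 1 ended all 3 calls, as did dropping the intensity trend or rescaling each library without the mitochondrial genome. ATP5F1B exceeded every other nuclear subunit of complex V, so the summed level of that list was lower in binding, at 4936, 4834 and 4671 TPM against 5320, 5657 and 5241 TPM, though most of its genes were higher.

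Within a library, the level of the mitochondrial subunits over the nuclear ones was higher in binding. For complex IV the log2 ratio of geometric means was 5.82, 6.33 and 6.58 in binding and 5.05, 5.23 and 4.97 in non-binding libraries. The mean difference was 1.18, 0.67, 1.16 and 1.14 on the log2 scale for complexes I, III, IV and V, with no overlap between groups in any (two-sided exact permutation p = 0.1 for each). Binding replicate 1 had the lowest ratio of the 3 binding libraries in all 4 complexes.

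**Figure D5:**
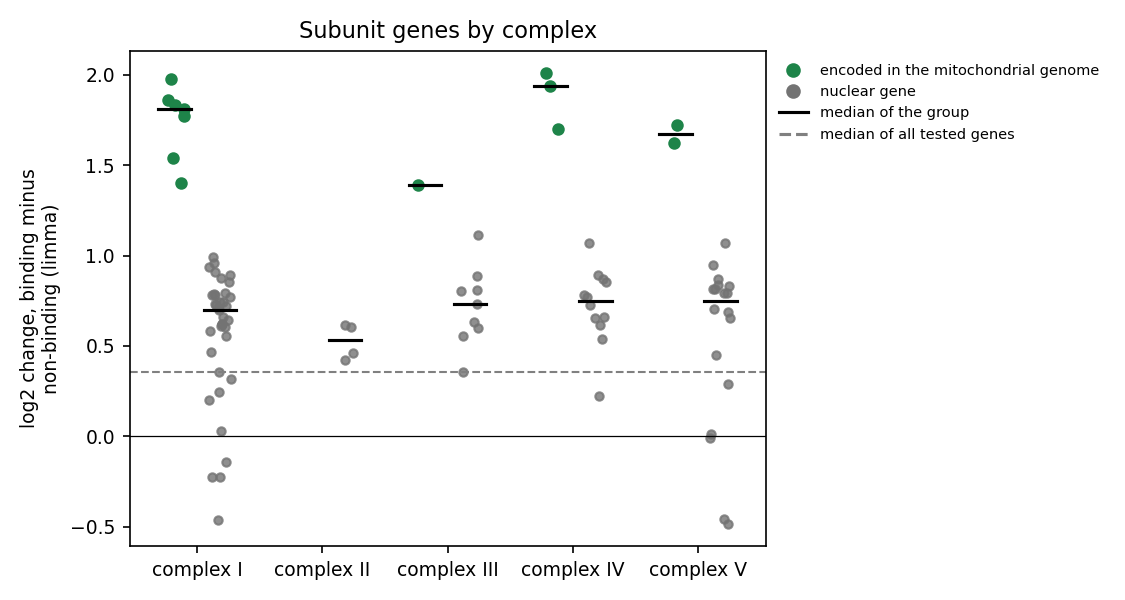
Log2 change between groups by limma on log2(TPM + 1) (vertical) for subunit genes of complexes I to V (horizontal), mitochondrial genes in green and nuclear genes in grey, with group medians as black lines. The green points run from 1.39 to 2.01 and lie above all grey points, and complex II has no mitochondrial gene.

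Proteins that make, cut and degrade mitochondrial RNA were compared by lists of nuclear genes. Of 10 transcription genes 1 passed higher and none lower, where 19.6% of all tested genes were called higher. It was POLRMT, the mitochondrial RNA polymerase, at 35.5 ± 5.76 against 20.5 ± 3.07 TPM (SD, n = 3 each; log2 change 0.76, limma adjusted p = 0.0267). TFAM, which packages the genome and starts transcription, and TFB2M, its partner factor, had log2 changes of 0.75 and 0.70 and did not pass (limma adjusted p = 0.0556 and 0.0656). Of 38 genes of RNA processing and modification 6 passed higher and none lower, where 19.6% of all genes were higher. Among them were GTPBP3, which modifies tRNA wobble bases (0.74), TRMT10C, a subunit of the nuclease that cuts tRNA 5′ ends (0.64), and RCC1L (0.69), with log2 changes in parentheses.

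Of 5 genes of RNA stability and decay, 3 passed higher and 1 lower, where the shares over all tested genes were 19.6% and 7.12%. SUPV3L1, the helicase of the mitochondrial degradosome, and LRPPRC, which stabilises heavy-strand mRNAs, had log2 changes of 0.74 and 0.69. PNPT1, the degradosome's nuclease, had 0.74. REXO2, an exonuclease of very short RNA, was lower, at 139, 198 and 175 TPM in the binding libraries and 260.3, 255 and 258 TPM in the non-binding libraries (log2 change -0.61, SE 0.15, limma adjusted p = 0.0273), and the call did not hold without binding replicate 3 or any non-binding library. SLIRP, the partner of LRPPRC, had a log2 change of 0.79 and did not pass.

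Of 19 mitochondrial aminoacyl-tRNA synthetases 4 passed higher and none lower, where 19.6% of all tested genes were called higher. IARS2, LARS2 and YARS2, which charge isoleucine, leucine and tyrosine tRNAs, had log2 changes of 0.86, 0.92 and 0.72. Of 15 genes that maintain mitochondrial DNA 8 passed higher and none lower, among them POLG2, the accessory subunit of the DNA polymerase (8.09 ± 2.08 against 3.17 ± 0.314 TPM, SD, n = 3 each; log2 change 1.10), and the nucleoside kinases DGUOK (0.82) and TK2 (0.96). Median log2 changes of these 5 lists, in the order given, were 0.49, 0.58, 0.74, 0.54 and 0.67, all above the 0.36 of all genes. Of all 87 genes in them 22 were higher, but 2 with the common median, where 6.18% of all genes were. None was higher without non-binding replicate 2 or without non-binding replicate 3. In those 2 settings only 429 of 15128 and 186 of 15081 genes tested were called in either direction.

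Nuclear copies of mitochondrial genes can take reads from them, and reads that match both are uncertain. Of 405 such rows 335 were at 0 in all libraries and 25 were tested, with 5 higher and none lower, where 19.6% of all tested genes were called higher. MTATP6P1, a near-identical copy of MT-ATP6, was listed at 437, 514 and 565 TPM in the binding libraries and 162, 139.6 and 144 TPM in the non-binding libraries, and MTCO1P12 at 135, 127 and 149 TPM in the binding libraries and 45.6, 33.0 and 24.6 TPM in the non-binding libraries. MTND1P23 was listed at 5.34, 1.60 and 3.09 TPM in the binding libraries and at 0 in the others, so it reached the filter only through the binding libraries and had to differ. The log2 changes of the first 2 copies, 1.76 and 2.00, lay near the 1.72 and 1.70 of MT-ATP6 and MT-CO1.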

How the data were processed

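Total RNA of sorted MDA-MB-231 cells was depleted of rRNA, fragmented, randomly primed and sequenced, per the labels' protocols. The deposited values are described as TPM, and every library sums to 1000000 over 58051 genes. The submitters' processing notes name hg38. The aligner, the counter, the annotation and any strand setting were not given in the sources used here. Columns were matched to samples by the labels' column names.

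The test was limma 3.58.1 (R 4.3.3) on log2(TPM + 1), using the intensity trend and no covariates. It took the 15574 genes that reached 1 TPM in 3 or more libraries, and calls were made at a Benjamini-Hochberg adjusted p of 0.05. Log2 changes are on that scale, which understates low genes. Reads were recovered as TPM times GENCODE 29 exon length over the library's step, and tested with voom as an alternative chosen after seeing the data. GENCODE 29 held 99.0% of the genes. Library totals are estimates, and read intervals cover counting error only. Shares and ratios were compared with exact permutation tests (scipy 1.17.1).

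The members and lists were chosen with earlier results of these data known. The 19 gene lists held 234 entries, of which 230 were matched. They covered mitochondrial transcription, RNA processing and modification, RNA stability and decay, DNA maintenance, aminoacyl-tRNA synthetases, nuclear subunits of complexes I to V, structural and nuclear-retained RNA, and markers of MDA-MB-231, luminal, epidermal, leukocyte, adipocyte, fibroblast and endothelial cells. Full statistics went to MT-ND6 and the most abundant member of each complex and of the rRNAs. Every tRNA with a read was named, and of each nuclear list the 3 genes with the smallest p. Statistics of other members, and VIM, ATP5F1B, ATP5MC3, NDUFS1, PNPT1 and SLIRP, were picked after the values were seen. So were the copies MTND2P28, MTCO2P1, MTRNR2L6 and MTRNR2L10. Structural RNAs summed to 132 to 204 TPM in binding and 91.1 to 279 TPM in non-binding libraries, with 8 of 15 at 0 in all, and nuclear-retained RNAs to 66.4 to 92.4 and 72.6 to 82.9 TPM. None of 6 structural RNAs tested passed, and 1 of 2 nuclear-retained RNAs was lower in binding. The limma script was tested on simulated data.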

Additional observations from a re-analysis of the deposited data

How the results depend on the processing

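The count of mitochondrial transcripts called higher was 24 and stayed between 18 and 24 under all alternatives, with none lower. All 15 mRNAs and rRNAs passed in each. The 9 tRNA calls became 5 with voom on recovered reads, where 7 were tested and 27.5% of all genes were called higher. They became 3 to 8 when 1 library was left out, 3 without non-binding replicate 3. These 3 were MT-TP, MT-TV and MT-TW. MT-TV and MT-TW, also among the 9 and the 24, reached the filter only through the binding libraries and so had to differ. The difference in TPM share, 7.33 percentage points, was 8.36 over protein-coding genes and members only, 6.58 without the 2 mitochondrial rRNAs and 2.00 as a share of recovered reads, and 6.95 to 7.57 when 1 library was left out. The log2 ratio of rRNA to mRNA differed by 0.11, which turned to -0.12 with geometric means and ranged from -0.00237 to 0.21 when 1 library was left out. That of complex IV moved from 0.094 to 0.145 with geometric means.

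The 22 nuclear genes of mitochondrial RNA and DNA called higher became 2 with the common median, 3 with quantile normalization, 6 without a filter, 9 without the intensity trend, 35 after rescaling without the mitochondrial genome, and 0 to 14 when 1 library was left out. The 1 lower became 0 without a filter, without the trend and with quantile normalization, and 0 to 1 when 1 library was left out. Of nuclear subunits, the 49 higher became 17, 25, 20 and 22 with the common median, quantile normalization, no filter and no trend, and 0 to 36 when 1 library was left out. The 3 lower became 5, 2, 1 and 0 in the same order, 0 after rescaling, and 0 to 3 when 1 library was left out. Nuclear copies called higher went from 5 to 3 with a filter of 5 TPM and 2 with voom, and 2 to 5 when 1 library was left out. The 0 lower became 1 under quantile normalization and under the common median, and 0 to 1 when 1 library was left out. The cause of these shifts was not tested. Calls over all genes, in either direction, shifted as well, so the list counts above are not results about these lists alone. Those calls numbered 4156 of 15574 genes tested in the main setting. The common median gave 2852 of 15574 and quantile normalization 2443 of 15574. Dropping the filter gave 1873 of 26817, dropping the trend 2559 of 15574, and rescaling 5302 of 15790. Leaving out 1 library gave 186 to 2941, with 186 of 15081 for non-binding replicate 3 and 429 of 15128 for non-binding replicate 2. The share of all genes called higher was 19.6% in the main setting, 6.18% for the common median and 27.5% by voom. For the other settings that share is not given here.

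Of the tRNAs that did not pass, 5 turned sign when 1 library was left out. MT-TL2, at 0.16, ranged from -0.47 to 0.50, and was -0.16 under the common median and -0.12 under quantile normalization. The ranges were -2.10 to 0.35 for MT-TM (at -0.70 with all libraries), -2.001 to 0.10 for MT-TG (at -0.76), -0.31 to 2.06 for MT-TH (at 1.27) and -0.40 to 1.93 for MT-TT (at 1.01).

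Both groups carry the numbers 1 to 3. Deviations from the group means correlated at 0.035, -0.017 and 0.028 for same-numbered libraries and at -0.074 to 0.062 for differently numbered ones. With 3 libraries a group, such values cannot decide whether same-numbered libraries shared a culture or sort. With a replicate block 24 mitochondrial transcripts were higher, 15 of 15 mRNAs and rRNAs and 9 tRNAs. In that setting 28 of 87 nuclear genes of mitochondrial RNA and DNA and 53 of 80 nuclear subunits were higher. Over all genes, 4306 of 15574 tested were then called in either direction. The paired share difference was 7.33 percentage points (exact sign-flip permutation test, two-sided p = 0.25, the smallest 3 pairs allow). Of the 22 tRNAs, 14 had 20 or fewer reads in all, and counting error at that depth is wide.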
